A study of Mus musculus with 5 samples.

Results

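De novo lipogenesis, the making of fatty acids from sugar, was followed in mouse hepatocytes through 10 genes, which were read by their symbols in the gene list of the deposited matrix (10 of 32285 genes). They were Fasn, Acaca, Acacb, Acly, Me1, Scd1, Srebf1, Thrsp, Mid1ip1 and Pnpla3. All 10 symbols were found. The livers came from male wild-type C57BL/6J mice on normal chow, and total hepatocytes were isolated and measured by droplet single-cell RNA sequencing (10x Genomics 3' v3). Every mouse had first gone through 3 days of training with 16 h without food overnight and 8 h of food by day. On the day of the experiment all groups received food together with 20% sucrose in the drinking water for 4 h. The fed group (0 h) was taken at that point, at clock hour 13, and the other groups 4, 8, 16 and 24 h after food and sucrose water were withdrawn, at clock hours 17, 21, 5 and 13. Each group was 1 library, and the sources used here do not give the age of the mice or how many animals a library came from. Hours without food and clock hour cannot be told apart at 4, 8 and 16 h. The 24 h and fed libraries share the clock hour.

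In the lipogenic pathway, citrate leaves the mitochondrion and is split by ATP citrate lyase (Acly) into acetyl-CoA. Acetyl-CoA carboxylase makes malonyl-CoA, as a cytosolic form (Acaca) that feeds synthesis and a form at the mitochondrial outer membrane (Acacb) that restrains fatty acid oxidation. Fatty acid synthase (Fasn) builds palmitate with NADPH, some of it from malic enzyme (Me1), and stearoyl-CoA desaturase (Scd1) introduces a double bond. In liver, insulin acts through SREBP-1c, a product of Srebf1, and sugar acts through ChREBP, a product of Mlxipl, to raise the transcription of these genes, and fasting is known to lower it. Thrsp (Spot 14) and Mid1ip1 are related small proteins, and Mid1ip1 promotes the polymerisation of acetyl-CoA carboxylase. Pnpla3 encodes a lipid droplet protein that is itself a lipogenic target.

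The sequence upstream of the start site is shown for Fasn, Acly and Srebf1, the synthase, the citrate-splitting enzyme and the transcription factor, which were each at least 4-fold lower 4 h after food was withdrawn. Each is the 250 bases before a RefSeq start on GRCm38.p6, written 5′ to 3′ on the strand of the gene, with the letters CCAAT or GGGCGG, or their reverse complements, in capitals. None of the 3 stretches overlaps an exon of its gene in GENCODE M21. Fasn lies at chr11:120824548-120824797 and Acly at chr11:100528001-100528250. For Srebf1 the innermost of its 3 listed starts is shown, at chr11:60210472-60210721. All 3 genes are on the minus strand.
Fasn: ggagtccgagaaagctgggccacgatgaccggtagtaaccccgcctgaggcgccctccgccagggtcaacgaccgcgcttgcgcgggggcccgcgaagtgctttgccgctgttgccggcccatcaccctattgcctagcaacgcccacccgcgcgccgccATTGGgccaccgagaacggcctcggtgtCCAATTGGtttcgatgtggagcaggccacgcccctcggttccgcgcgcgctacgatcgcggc
Acly: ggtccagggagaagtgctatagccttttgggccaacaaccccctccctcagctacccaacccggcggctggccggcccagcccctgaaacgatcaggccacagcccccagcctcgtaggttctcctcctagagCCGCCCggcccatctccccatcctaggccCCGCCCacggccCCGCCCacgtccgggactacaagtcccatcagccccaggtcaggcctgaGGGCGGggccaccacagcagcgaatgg
Srebf1: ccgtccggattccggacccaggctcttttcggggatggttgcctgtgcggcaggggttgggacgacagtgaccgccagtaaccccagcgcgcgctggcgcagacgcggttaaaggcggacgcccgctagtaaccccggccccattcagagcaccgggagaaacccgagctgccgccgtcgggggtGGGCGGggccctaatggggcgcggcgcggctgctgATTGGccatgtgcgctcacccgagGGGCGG

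In the Fasn stretch a CCAAT pair, one on each strand and sharing 2 letters, lay at -62 to -55 from the start, and a further match lay at -90 to -86. The Acly stretch held 4 GC boxes (GGGCGG), the nearest at -27 to -22. The Srebf1 stretch held 1 CCAAT box at -30 to -26 and 2 GC boxes. Of the 10 genes, 9 were in the RefSeq promoter table, with 12 starts, and Scd1 was not matched. Searched on both strands, the CCAAT box was found before at least 1 start of 6 of the 9 genes, or 7 of the 12 starts, against 33.8% of all 32851 starts. The GC box was found in 5 of the 9 genes, or 6 of the 12 starts, against 32.7% of all starts. The windows counted overlap an exon of their own gene in GENCODE M21 by 180 bases for Thrsp, 39 for 1 start of Me1 and 9 for Acacb, and both CCAAT matches of Thrsp lie inside its 180 bases. Several windows, that shown for Srebf1 among them, lie inside the GENCODE span of their gene. The Acaca window is at chr11:84195188-84195437 (gene start 84129672) and that of Mid1ip1 at chrX:10717115-10717364 (gene start 10715013). Whether a listed start is the main one in liver was not tested. The E-box CACGTG (6.02% of all starts), the sterol regulatory element TCACNCCA (3.67%), the LXR element (0.0152%) and the carbohydrate response element (0%) were found in none of the 12 windows of 250 bases. The carbohydrate response element contains the E-box letters. The LXR and carbohydrate response elements were each searched in a single strict spelling, which was found before 5 and 0 of all 32851 starts. Spellings this rare cannot show whether these elements are present or absent in the 12 windows. Looser spellings were not searched. These are matches of letters, and the data hold no measure of binding.

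Hepatocytes were taken as barcodes with 1000 or more UMIs (unique molecular identifiers, 1 per captured transcript), 500 or more genes and 2 to 30% mitochondrial UMIs. This left 7826, 4567, 2716, 9125 and 4576 cells at 0, 4, 8, 16 and 24 h, with median UMI counts of 5408, 12097, 15005, 4391 and 8979. The 5 libraries held 40002260 to 68330252 UMIs in all. At 8 h only 3325 of the 10000 barcodes passed the UMI and gene minimum. Barcodes under 2% mitochondrial UMIs, which were left out, numbered 2172, 5345, 576, 234 and 5400 in time order. All 8 hepatocyte markers were detected in every library, with a summed level of 91934 to 122426 CPM (counts per 1000000 non-mitochondrial UMIs). Endothelial markers summed to 89.5, 13.2, 12.7, 33.7 and 20.3 CPM and Kupffer cell markers to 38.5, 2.68, 0.148, 4.89 and 4.58 CPM, so that both were highest in the fed library. Without hepatocyte barcodes that held 3 or more UMIs of markers of other cells, the counts of the 10 genes lower than fed were the same at each time. Markers of adipocytes, another lipogenic cell, summed to at most 0.238 CPM in any library. Barcode sequences shared between 2 libraries numbered 22 to 30 over all barcodes and 1 to 17 among hepatocytes.

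Levels below are CPM over the summed hepatocytes of a library. All intervals are 95% intervals that cover counting error only. With 1 library per time there is no measure of the spread between animals, no test was possible, and each ratio compares 2 libraries. A gene was called changed when it differed at least 2-fold between 2 libraries, with 50 CPM or more in either. The 9 genes other than Pnpla3 reached that minimum in every comparison with the fed library.

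Srebf1 encodes the transcription factor SREBP-1. It stood at 438 CPM in the fed library and at 88.4, 22.9, 64.0 and 70.8 CPM at 4, 8, 16 and 24 h. All 4 fasted libraries were below the fed one, with the lowest level at 8 h. Against the fed library these are log2 ratios of -2.31 (interval -2.36 to -2.26), -4.26 (-4.36 to -4.15), -2.78 (-2.84 to -2.71) and -2.63 (-2.69 to -2.57). From 8 to 16 h the level was 2.79-fold higher, and it stayed well under the fed level. Over 11 other settings for cells and scaling the 24 h log2 ratio ran from -3.53 to -2.45. In barcodes under 2% mitochondrial UMIs Srebf1 stood at 148 CPM fed and 12.8 CPM at 24 h. The gene spans 11:60199089-60222581 on GRCm38, minus strand. Counts are per gene, so that the transcripts of SREBP-1a and SREBP-1c were not separated.

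Acly stood at 1860 CPM fed and at 430, 161, 224 and 174 CPM from 4 to 24 h. It was 4.33-fold lower at 4 h and a further 2.67-fold lower between 4 and 8 h. Its log2 ratios were -2.11 (-2.14 to -2.09), -3.53 (-3.57 to -3.49), -3.05 (-3.09 to -3.02) and -3.41 (-3.45 to -3.38). The 4 h library held 23.1% of the fed level and the later ones 8.66 to 12.1%.

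The 2 acetyl-CoA carboxylase genes differed in their course. Acaca, the cytosolic form, stood at 275 CPM fed and at 52.8, 37.6, 50.8 and 46.7 CPM from 4 to 24 h. It was thus 5.21-fold lower at 4 h (log2 -2.38, interval -2.45 to -2.32) and remained between 13.7 and 19.2% of the fed level. Acacb, the mitochondrial form, stood at 64.2 CPM fed and at 45.5, 91.1, 16.3 and 11.2 CPM from 4 to 24 h. Its highest level was at 8 h without food, above the fed library. Relative to fed, the log2 difference was -0.50 (-0.58 to -0.41) in the 4 h library and 0.50 (0.43 to 0.58) in the 8 h library, both under 2-fold. The 16 h library lay at -1.98 (-2.12 to -1.84) and the 24 h library at -2.52 (-2.67 to -2.37). In barcodes under 2% mitochondrial UMIs, where Acacb was under 50 CPM in both libraries, the 16 h value was -0.77, from 7 UMIs. Between the 8 and 16 h libraries Acacb was 5.59-fold lower, while Acaca was 1.35-fold higher.

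Mid1ip1, the partner of acetyl-CoA carboxylase, stood at 270 CPM fed and at 19.9, 19.4, 59.8 and 40.3 CPM from 4 to 24 h. It was 13.5-fold lower at 4 h (log2 -3.76, -3.86 to -3.66) and 13.9-fold lower at 8 h, and then 3.09-fold higher at 16 than at 8 h. Its 4 and 8 h levels did not differ beyond counting error (log2 -0.04, -0.19 to 0.10). Over 11 other settings for cells and scaling the log2 ratio to fed ran from -4.19 to -3.59 at 8 h and from -2.86 to -2.09 at 16 h. The lowest of each came from barcodes under 2% mitochondrial UMIs, with 17 and 11 UMIs of Mid1ip1. Thrsp, its relative, took another course. It stood at 3592 CPM fed and at 1108, 458, 137 and 477 CPM from 4 to 24 h. Each library up to 16 h was lower than the one before it, by 3.24-fold, 2.42-fold and 3.34-fold, and the 24 h library was 3.48-fold above the 16 h one. In barcodes under 2% mitochondrial UMIs the 4 h log2 ratio was -0.67, under 2-fold, against -1.70 here. The 16 h library lay at a log2 ratio of -4.71 (-4.76 to -4.67), against -2.91 (-2.94 to -2.89) for the 24 h library.

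Of the 9 genes above the minimum, Fasn was lowered most at 4 h. Its level was 2021 CPM in the fed library (interval 2006 to 2035) and 83.1, 93.8, 126 and 114 CPM from 4 to 24 h. All 4 fasted libraries lay between 4.11 and 6.26% of the fed level, and the lowest was already the 4 h library. Its log2 ratios were -4.60 (-4.65 to -4.56), -4.43 (-4.48 to -4.38), -4.00 (-4.04 to -3.95) and -4.15 (-4.20 to -4.11). In barcodes under 2% mitochondrial UMIs they were -4.90, -5.50, -3.51 and -4.49, with the lowest at 8 h. The gene lies at 11:120805846-120824547 and overlaps no other annotated gene.

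Me1, a source of NADPH, stood at 443 CPM fed and at 220, 176, 333 and 135 CPM from 4 to 24 h. The 16 h library came nearest to the fed one, at 75.1% of it. Its log2 ratios were -1.01 (-1.04 to -0.97), -1.33 (-1.37 to -1.29), -0.41 (-0.45 to -0.38) and -1.71 (-1.76 to -1.67). At 4 h it was just past 2-fold, and the log2 ratio was -0.85 under TMM scaling, which is set by the bulk of the genes.

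Scd1, the desaturase, stood at 7548 CPM fed and at 5996, 5168, 9445 and 2452 CPM from 4 to 24 h. The 16 h library was the highest of the 5, and the 24 h library was the only one at least 2-fold below fed. Its log2 ratios were -0.33 (-0.34 to -0.32), -0.55 (-0.55 to -0.54), 0.32 (0.32 to 0.33) and -1.62 (-1.63 to -1.61). Between 16 and 24 h the level was 3.85-fold lower. In barcodes under 2% mitochondrial UMIs Scd1 at 16 h was past 2-fold higher than fed (log2 1.18). Pnpla3 was close to undetected, with 48 UMIs fed (1.27 CPM), 2 UMIs each at 4, 8 and 16 h and 0 at 24 h. At 24 h this makes it at least 15.9-fold lower than fed when 3 counts in the library are taken as the floor. At 4 h the interval of its log2 ratio ran from -7.94 to -2.92.

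**Figure D1:**
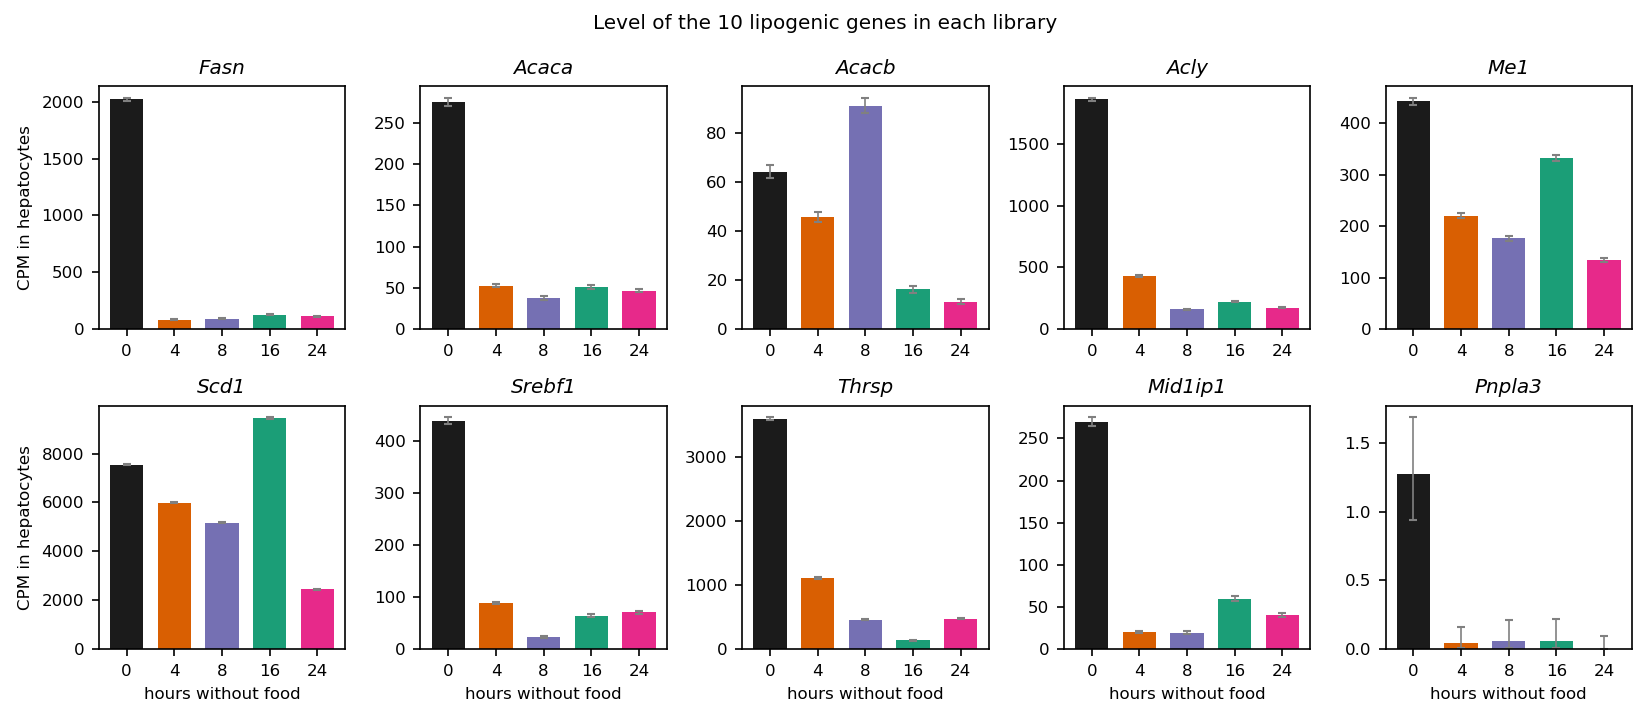
CPM of each of the 10 genes (y axis, a separate linear scale for each gene) in the hepatocytes of the 5 libraries, ordered by hours without food (x axis); bars are 1 library each and error bars the 95% interval of the count. Fasn is low in every fasted library, Thrsp is lowest at 16 h (137 CPM), Acacb is highest at 8 h (91.1 CPM) and Scd1 is highest at 16 h (9445 CPM).

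Of the 9 genes tested, 7 were at least 2-fold lower than fed at 4 h, against 5.97% of all 2948 genes tested. At 8 h the count was 7 of 9 (11.8% of all genes), at 16 h 7 of 9 (4.04%) and at 24 h 9 of 9 (10.6%). The 7 at 4 h and at 8 h were Fasn, Acaca, Acly, Me1, Srebf1, Thrsp and Mid1ip1, and at 16 h Acacb stood in place of Me1. None was at least 2-fold higher than fed in the hepatocytes at any time, where 5.73, 7.95, 3.31 and 6.68% of all genes were. The median log2 ratio of the 9 genes was -2.11, -2.97, -2.44 and -2.63, beside -0.03, -0.04, 0.00 and -0.03 over all genes tested. These 4 comparisons share the fed library. Under TMM scaling the median of 2009 genes lay at 0.18, 0.20, 0.09 and 0.20 in place of 0.02, -0.01, 0.00 and 0.02, and 6 of the 9 genes were lower at 4 h. Among all genes called at 4 h the part that was lower was then 34.2% in place of 51.0%, at 8 h 40% in place of 59.8%, at 16 h 44.3% in place of 55% and at 24 h 43.8% in place of 61.4%.

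Ranked by the 4 h ratio, the order of decline was Fasn, Mid1ip1, Acaca, Srebf1, Acly, Thrsp, Me1, Acacb and Scd1. Each neighbour in this order was apart beyond its counting interval except Acaca and Srebf1, whose intervals overlapped. The order differed in 2 of the 11 other settings for cells and scaling. With 2 to 15% mitochondrial UMIs Acly (-2.59) came before Acaca (-2.57) and Srebf1 (-2.51), and Scd1 (-0.64) before Acacb (-0.59). In barcodes under 2% mitochondrial UMIs Thrsp (-0.67) came after Me1 (-0.97) and Scd1 (-0.70), and Acacb (-0.60) was last. Expressed against the lowest level each gene reached, Fasn had made 100% of its log2 decline at 4 h, Mid1ip1 98.9% and Acaca 82.9%. Acly had made 59.9%, Me1 58.8% and Srebf1 54.3%. Thrsp had made 36.0%, Scd1 20.5% and Acacb 19.7%. These shares depend on which library was lowest. For Mid1ip1 that was 8 h in 5 of the 11 settings and 4 h in the other 6. For Acly it was 8 h in 9 and 24 h in 2, and for Fasn it was 4 h in 10 and 8 h in 1. For the other 6 genes it was the same library in all 11. A level at least 4-fold below fed was first seen at 4 h for Fasn, Acaca, Acly, Srebf1 and Mid1ip1, at 8 h for Thrsp and at 24 h for Acacb. Me1 and Scd1 did not reach it in any library. Between neighbouring libraries, Acly, Srebf1 and Thrsp were at least 2-fold lower at 8 than at 4 h (3 of 8 tested, 2.22% of all genes) and none was higher (1.11%). Acacb and Thrsp were lower at 16 than at 8 h (2 of 9, 9.74%), and Srebf1 and Mid1ip1 were higher (2 of 9, 11.3%). At 24 h Me1 and Scd1 were lower than at 16 h (2 of 8, 6.92%) and Thrsp was higher (1 of 8, 7.52%). Over the same 11 settings, Fasn was the most lowered of the 9 genes at 4, 8 and 24 h and Thrsp at 16 h in every one.

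**Figure D2:**
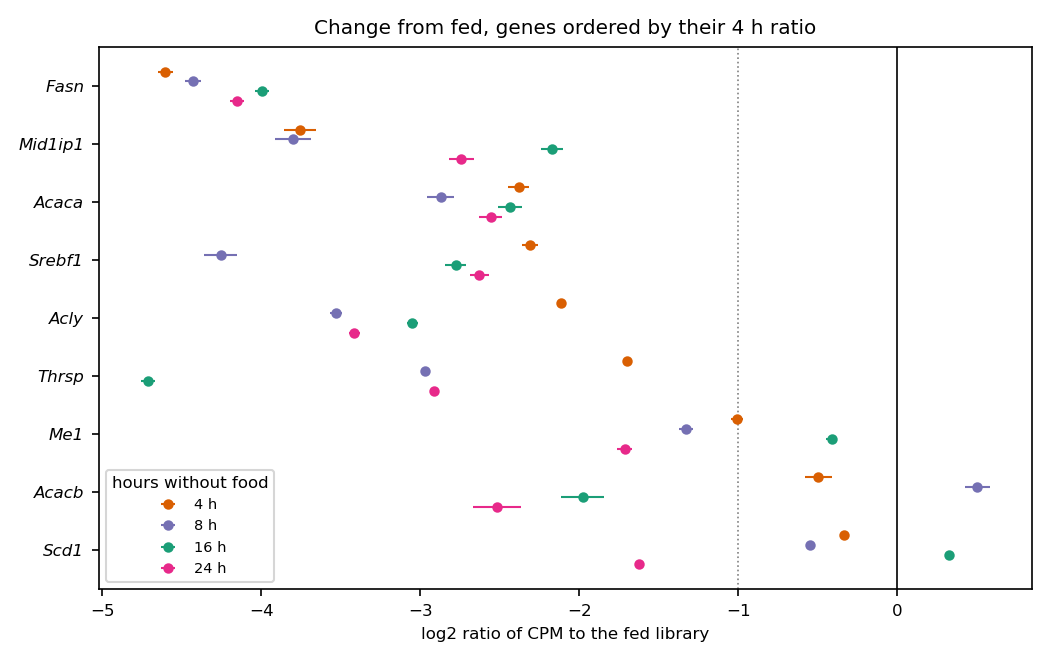
Log2 ratio of CPM to the fed library (x axis) for the 9 genes above the expression minimum, ordered from top to bottom by the 4 h ratio; points are the 4 fasted libraries, bars the 95% counting interval, and the dotted line marks a 2-fold lower level. Fasn and Mid1ip1 are far to the left at 4 h (-4.60 and -3.76), Thrsp moves leftmost at 16 h (-4.71), and Acacb at 8 h and Scd1 at 16 h lie to the right of 0.

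Single hepatocytes, without the endothelial-like barcodes described below, were compared after each was thinned at random to 2000 non-mitochondrial UMIs, which left out 1336, 1071, 214, 1454 and 225 shallower hepatocytes in time order. In the fed library Fasn was seen in 95.8% of 6315 hepatocytes, with a mean of 4.00 UMIs, a median of 4 and a top value of 19. From 4 to 24 h it was seen in 15.4, 16.7, 21.7 and 16.3% of cells, and without thinning in 43.3, 61.9, 34.4 and 45.2% (96.3% fed). Thinned to 1000 UMIs, it was seen in 81.0% of fed cells and in 6.39, 9.21, 11.8 and 8.88% from 4 to 24 h. Cells with 5 or more Fasn UMIs made up 36.5% of the fed hepatocytes, 0.0131% at 16 h and 0% at 4, 8 and 24 h. The highest Fasn count in any thinned cell was 3, 4, 5 and 4 UMIs from 4 to 24 h.

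Thrsp was seen in 99.1, 84.0, 56.7, 22.0 and 59.0% of the thinned cells in time order, and Acly in 92.4, 54.2, 26.0, 34.8 and 24.1%. Scd1 stayed in 99.7, 98.5, 99.1, 99.9 and 85.0%, with mean counts of 16.0, 12.2, 10.2, 18.9 and 4.33 UMIs. These shares depend on depth. Thinned to 1000 UMIs, Thrsp was seen in 93.7, 66.2, 37.4, 11.7 and 37.1% and Acly in 72.7, 29.6, 16.7, 19.3 and 12.8%. Without thinning, Thrsp was seen in 99.6, 96.3, 91.3, 33.7 and 84.6% and Acly in 92.1, 73.1, 77.2, 51.3 and 53.8%. In fed cells the rank correlation was 0.37 between Acly and Thrsp, 0.32 between Fasn and Thrsp and 0.32 between Fasn and Acly, over 6315 cells that share 1 library. At 4 h Acly and Thrsp gave 0.070, with fewer UMIs of both. Scd1 and Thrsp gave 0.15 fed, 0.17 at 4 h, 0.057 at 8 h and -0.15 at 24 h. Me1, seen in 54.1% of these fed cells, gave 0.14 with Fasn, 0.16 with Acly, 0.19 with Scd1 and 0.14 with Thrsp. Fed pairs with Srebf1 (seen in 58.0%), Acaca (41.4%) or Mid1ip1 (37.8%) gave at most 0.12 (Acly and Mid1ip1). The cause of these low values was not tested.

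Endothelial-like barcodes, with UMIs of at least 4 of 8 endothelial markers, held these transcripts too. They numbered 286, 10, 18, 63 and 40, of which 175, 10, 10, 55 and 29 also passed the hepatocyte limits and are counted in the hepatocyte levels. Doublets were not removed, so some may hold a hepatocyte as well. They had median non-mitochondrial UMI counts of 1759, 3749, 1667.5, 1241 and 3541.5 against 4798, 9404, 13552.5, 3763 and 7236 in the hepatocytes. In the fed library 86.6% of 97 such cells had a Fasn UMI after thinning, at a mean of 2.35 UMIs. Their summed Fasn level was 1182 CPM fed (1099 to 1269) and 45.5, 103, 114 and 88.2 CPM from 4 to 24 h. Hepatocytes were above the interval of these barcodes for all 9 genes in the fed library. In each fasted library, with 10 to 63 such barcodes and wide intervals, this held for 2 of 9: Me1 and Scd1 at 4 and 16 h, and Scd1 and Thrsp at 8 and 24 h. At 24 h the share of cells with a Fasn UMI was 16.3% in hepatocytes and 17.5% in 40 endothelial-like cells, and for Acly it was 24.1 and 25%. Fasn, Acaca, Acacb, Acly, Srebf1 and Mid1ip1 lay inside that interval in all 4 fasted libraries. Their summed levels there were thus not distinguishable from those of these barcodes. Thinning left 8, 7, 12 and 40 of these barcodes from 4 to 24 h, so that shares of cells could hardly be told apart. The parts of free RNA and of doublets were not tested, nor whether such a floor limits the ratios to fed of these 6 genes, their order or their percent of decline at 4 h. Barcodes under 2% mitochondrial UMIs lay lower than hepatocytes for some of these genes, as for Fasn at 8 h (31.4 against 93.8 CPM) and Srebf1 at 24 h (12.8 against 70.8 CPM).

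**Figure D3:**
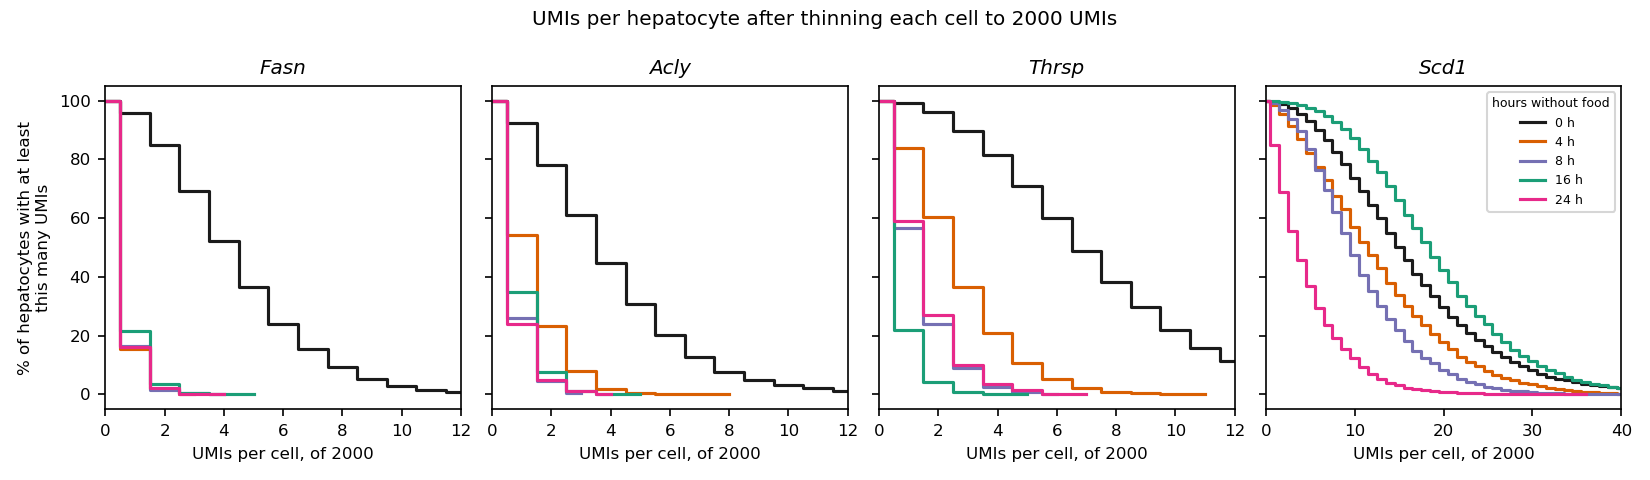
Percent of hepatocytes (y axis) with at least the number of UMIs on the x axis, for Fasn, Acly, Thrsp and Scd1, after thinning each cell to 2000 non-mitochondrial UMIs; each line is 1 library, and the x axis of Scd1 is longer. The fed line lies far to the right for Fasn, Acly and Thrsp, and for Scd1 the 16 h line lies to the right of the fed line over most of its range, the fed library has the highest count (85 UMIs against 64 at 16 h), and the 24 h line lies to the left of the others.

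Hepatocytes differ along the liver lobule, from the portal side, where Cyp2f2 is high, to the central side, where Cyp2e1 is high. In each library the cells were ranked by the log2 ratio of both genes (per 10000 UMIs, plus 1) and split into 5 equal parts, which are ranges of a score and not measured positions. The first part is called the Cyp2f2 end and the last the Cyp2e1 end. As a check, Glul, a central gene that was not used, was 2.55-fold higher at the Cyp2e1 end in the fed library, with log2 ratios of 3.23, 1.25 and 3.58 at 4, 8 and 16 h. At 24 h it was not separated beyond counting error (58.1 CPM at the Cyp2f2 and 50.3 CPM at the Cyp2e1 end), and Sds, a portal gene, was 1.61-fold higher at the Cyp2e1 end. Other landmarks at 24 h followed the score: the central genes Oat (10.5 against 107 CPM) and Cyp1a2 (11.2 against 87.2 CPM) were higher at the Cyp2e1 end, and the portal gene Hal (944 against 638 CPM) at the Cyp2f2 end. Cyp2e1 stood at 478 CPM over all cells of that library against 1130 to 2304 CPM in the others. The Cyp2e1 end cells at 24 h also had fewer UMIs than those at the Cyp2f2 end (median 2854 against 10152) and a lower mitochondrial share (8.88 against 19.5%). The ends also differed in median UMIs at 0 h (2914 against 5337) and 4 h (5551 against 16992), and in cells with 5000 or more UMIs the fed differences were smaller for most genes, as given below. With landmarks divided, the 24 h ends are given as values of the score only.

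In the fed library 7 of the 10 genes were higher at the Cyp2f2 end beyond counting error, against 6.49% of all 15295 genes. Among genes with 50 CPM or more at either end this was 7 of 9, against 18.2%. These differences were small. Fasn stood at 2075 CPM at the Cyp2f2 end and 1658 CPM at the Cyp2e1 end (log2 ratio of the Cyp2e1 to the Cyp2f2 end -0.32, interval -0.36 to -0.29). Acaca had the largest, with 293 against 201 CPM (log2 -0.54), and Acly stood at 1869 against 1369 CPM. Me1 went the other way, with 395 CPM at the Cyp2f2 end and 539 CPM at the Cyp2e1 end (log2 0.45), and Scd1 was nearly level (log2 0.03). These 2 were higher at the Cyp2e1 end, where 20.1% of all genes were (2 of 9 with 50 CPM or more, against 43.4%). In cells with 5000 or more UMIs the log2 ratio was -0.066 for Fasn, -0.083 for Acly, -0.018 for Acacb and -0.24 for Acaca, and 0.49 for Me1 and 0.31 for Scd1. Scd1 changed direction under 3 of 10 other settings, to -0.37 with no lower mitochondrial limit.

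At 4 h Me1 was 2.07-fold higher at the Cyp2e1 end (167 against 345 CPM), and at 8 h 1.89-fold (152 against 287 CPM). At 16 h this had shrunk to 1.14-fold (311 against 355 CPM). Among the settings that used hepatocytes, 9 of 9 kept this direction at each of 0, 4, 8 and 16 h. Thrsp was also higher at the Cyp2e1 end at 4 h (975 against 1355 CPM) and Scd1 at 8 h (4620 against 6755 CPM). In all, 6 genes were higher at the Cyp2e1 end at 4 h (17.7% of all genes) and 3, namely Acaca, Acly and Srebf1, at the Cyp2f2 end (10.7%). Of the 8 genes with 50 CPM or more these were 5 (44.9% of all such genes) and 3 (23.7%). In cells with 5000 or more UMIs Acly at 4 h was level (-0.00087). The count of 6 was 2 when only cells with 2 to 15% mitochondrial UMIs were used, where Fasn, Acacb and Scd1 changed direction at 4 h to -0.24, -0.27 and -0.52. At 8 h 5 genes were higher at the Cyp2e1 end (14.9%) and Fasn alone at the Cyp2f2 end (7.72%). Of the 6 with 50 CPM or more these were 5 (38.8%) and 1 (19.4%).

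At 16 h 7 of 10 genes were higher at the Cyp2f2 end (6.55% of all genes), and Me1 alone was higher at the Cyp2e1 end (18.8%). Of the 8 with 50 CPM or more these were 7 (15.4% of all such genes) and 1 (46.9%). Thrsp had the widest difference of the 9 genes in any library, with 171 CPM at the Cyp2f2 end and 67.1 CPM at the Cyp2e1 end (2.55-fold). Acly followed with 261 against 109 CPM (2.40-fold). From the Cyp2f2 to the Cyp2e1 end Thrsp stood at 171, 166, 163, 109 and 67.1 CPM and Acly at 261, 268, 247, 228 and 109 CPM. Mid1ip1 (1.72-fold), Acaca (1.64-fold) and Fasn (1.54-fold) were also higher at the Cyp2f2 end. The overall 16 h levels of Thrsp, Acly, Mid1ip1, Acaca and Fasn lay inside the endothelial-like interval given above. All 5 kept that direction in 9 of 9 other settings on hepatocytes. In barcodes under 2% mitochondrial UMIs the 16 h log2 ratio of Acly, Srebf1 and Mid1ip1 was 0.33 each. All 234 such barcodes together held 35, 12 and 11 UMIs of these genes, too few to read a direction from. At 24 h 5 genes were higher at the Cyp2f2 end (16.7%) and Thrsp at the Cyp2e1 end (17.3%). Of the 6 with 50 CPM or more these were 3, Fasn, Acly and Srebf1 (42.2%), and 1 (39%). Thrsp at 24 h was reversed by 6 of 10 settings.

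Compared with the fed library at the same end, each of the 9 genes kept the direction of its overall difference at both ends. The ends are ranked within each library and do not hold the same range of the score. At the Cyp2e1 end the median score was -4.20, -6.07, -4.62, -6.22 and -1.21 at 0, 4, 8, 16 and 24 h. These ratios thus compare cells of unlike score. Fasn at 4 h was lower by a log2 ratio of -4.82 at the Cyp2f2 end and -4.17 at the Cyp2e1 end, and Srebf1 at 8 h by -4.34 and -4.01. Thrsp at 16 h was lower by -4.37 and -5.50, which was the widest gap between the ends. Acacb at 4 h was lower at the Cyp2f2 end (-0.77) and not beyond counting error at the Cyp2e1 end (-0.12, -0.35 to 0.10), and at 8 h it was higher at both (0.27 and 0.89).

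**Figure D4:**
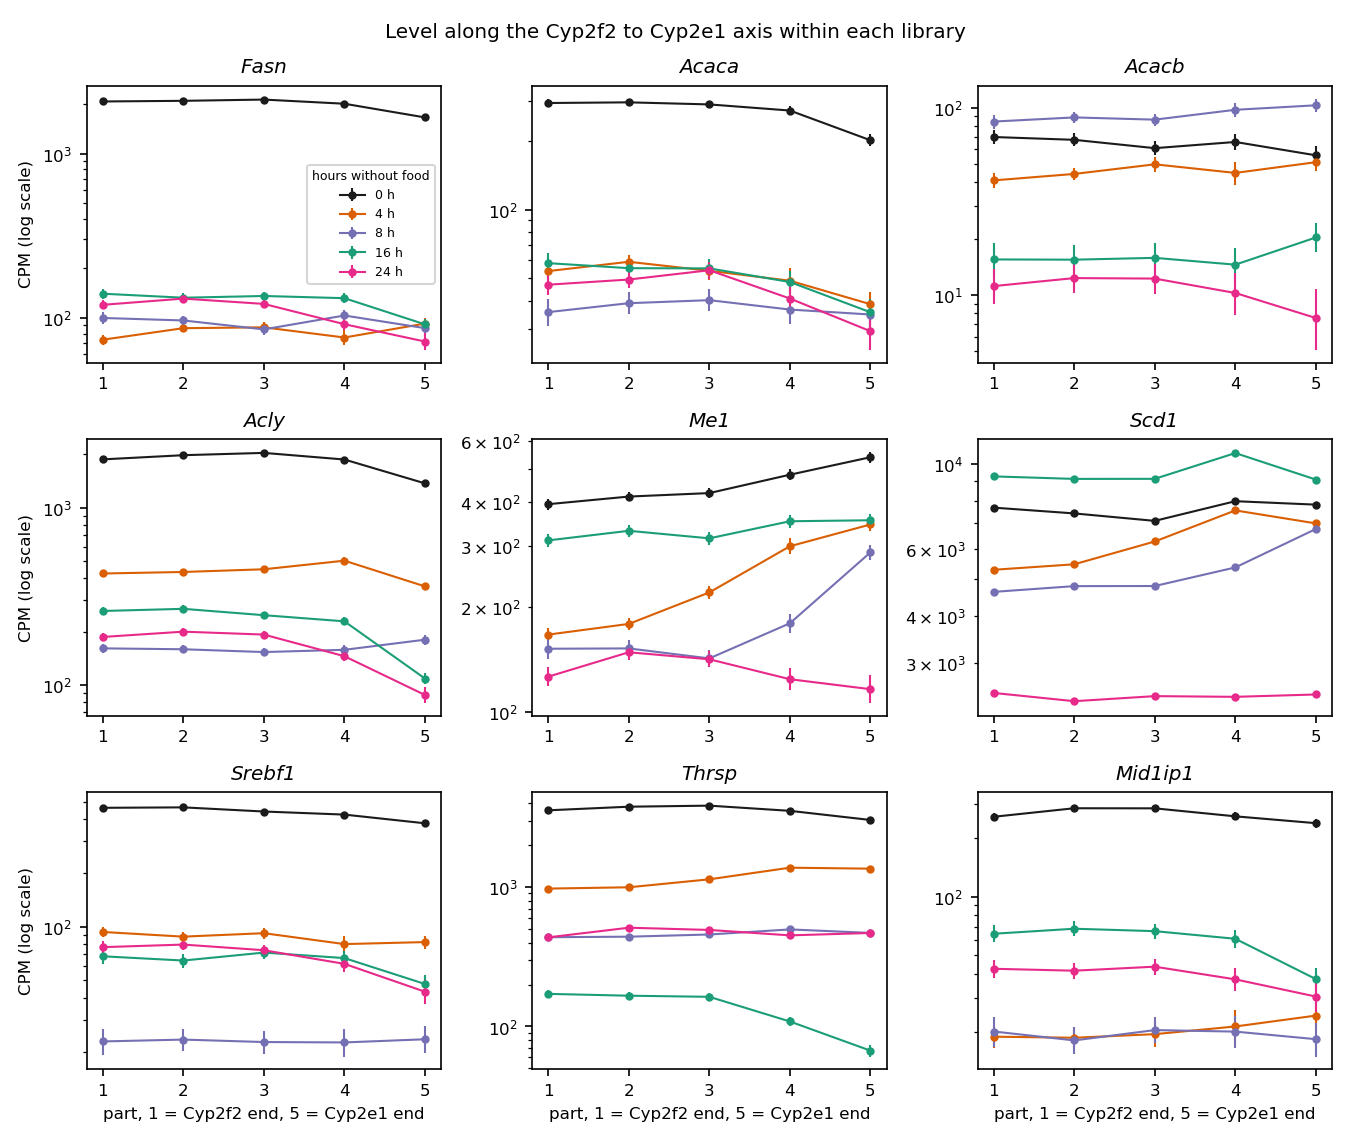
CPM (y axis, log scale, its range set for each gene) of the 9 genes in 5 equal parts of each library's hepatocytes along the Cyp2f2 to Cyp2e1 score (x axis, part 1 is the Cyp2f2 end and part 5 the Cyp2e1 end); lines are libraries and bars 95% counting intervals. Me1 is highest in part 5 at 0, 4 and 8 h, and Thrsp and Acly drop toward part 5 at 16 h (Thrsp to 67.1 CPM, Acly to 109 CPM).

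Neighbouring steps were read from 7 lists of 69 genes in all, of which 56 reached 50 CPM in at least 1 library. Of these 56, 12, 15, 15 and 16 were at least 2-fold lower than fed at 4, 8, 16 and 24 h, and 3, 5, 3 and 7 were higher. Over all genes tested 5.97, 11.8, 4.04 and 10.6% were lower and 5.73, 7.95, 3.31 and 6.68% higher, so that a count of 1 in a list of 9 is near that share at 8 and 24 h. In sugar entry 4, 5, 5 and 4 of 8 tested genes were lower and none higher, with a median log2 ratio of -0.95, -1.38, -1.23 and -1.06. Tkfc, which acts on fructose products, and Pklr, the liver pyruvate kinase, were at least 2-fold lower in all 4 libraries, with log2 ratios of -1.31 and -1.63 at 24 h. Under TMM scaling Pklr at 4 h was -0.98 and the list's counts were 2, 5, 5 and 3. The glucose transporter Slc2a2 was lower at 8 h (-1.56) and had the highest ratio of the list at 24 h (-0.08).

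In citrate and acetyl-CoA supply, 1, 1, 1 and 2 of 9 genes were lower, with Pdhb, a pyruvate dehydrogenase subunit, lower at all 4 times (-2.09 at 24 h). At 24 h 3 of the 9 were higher, of which Slc25a10, a mitochondrial dicarboxylate carrier, had the highest log2 ratio (1.06). In NADPH supply, 1, 2, 2 and 2 of 6 tested genes were lower and none higher, and under TMM scaling 1, 1, 2 and 2 were lower. Pgd, of the pentose phosphate pathway, was lower at all 4 times (-1.48, -1.69, -2.09 and -2.20), while Pgls of the same pathway lay at 0.82 at 24 h and, under TMM scaling, at 1.12 at 8 h. In elongation and desaturation, Elovl6, which lengthens palmitate, was lower at all 4 times. It stood at 863 CPM fed and at 61.4, 22.6, 69.4 and 59.0 CPM, with log2 ratios of -3.81, -5.26, -3.64 and -3.87. Of the 7 tested genes of that list 2, 2, 1 and 1 were lower and none was higher. Under TMM scaling 2, 1, 1 and 1 were lower, and Fads1, named after its values were seen, was past 2-fold higher at 4 and 8 h (1.02 and 1.07). Fads2, a desaturase of polyunsaturated fatty acids, lay at 0.43 at 24 h.

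Triglyceride assembly was split. Gpam, the first acyltransferase, was lower at all 4 times (632 CPM fed, 201, 74.1, 201 and 140 CPM after). Lpin2, a phosphatidate phosphatase, was at least 2-fold higher at all 4 (83.6 CPM fed, 397, 404, 188 and 288 CPM after). Over the list, 2, 2, 3 and 2 of 10 were lower (2, 2, 2 and 2 under TMM scaling) and 2, 3, 1 and 3 higher. Among 11 tested genes of transcriptional control, 2, 2, 3 and 5 were lower and 1, 2, 1 and 0 higher, and under TMM scaling 2, 2, 2 and 3 were lower. Insig1, which holds SREBP precursors in the endoplasmic reticulum, was lower at all 4 times (1177 CPM fed, 420, 182, 562 and 272 CPM after), although its 16 h log2 ratio of -1.07 was -0.98 under TMM scaling. Its relative Insig2, named after its values were seen, stood at 187 CPM fed and at 547, 782, 512 and 252 CPM, at least 2-fold higher at 4, 8 and 16 h. Scap, the escort protein of SREBP precursors, had the highest 24 h ratio of the list (0.77). Of 5 tested brakes and opposing steps, 0, 1, 0 and 0 were lower and 0, 0, 1 and 1 higher. The one that was higher was Cpt1a, which carries fatty acids into oxidation and is inhibited by malonyl-CoA, with a log2 ratio of 0.70, 0.88, 1.29 and 1.77. Under TMM scaling Cpt1a (1.09) and Mlycd (1.06, likewise named after its values were seen) were both past 2-fold higher at 8 h. Prkaa2, a catalytic AMPK subunit, had the lowest 24 h ratio of that list (-0.83).

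**Figure D5:**
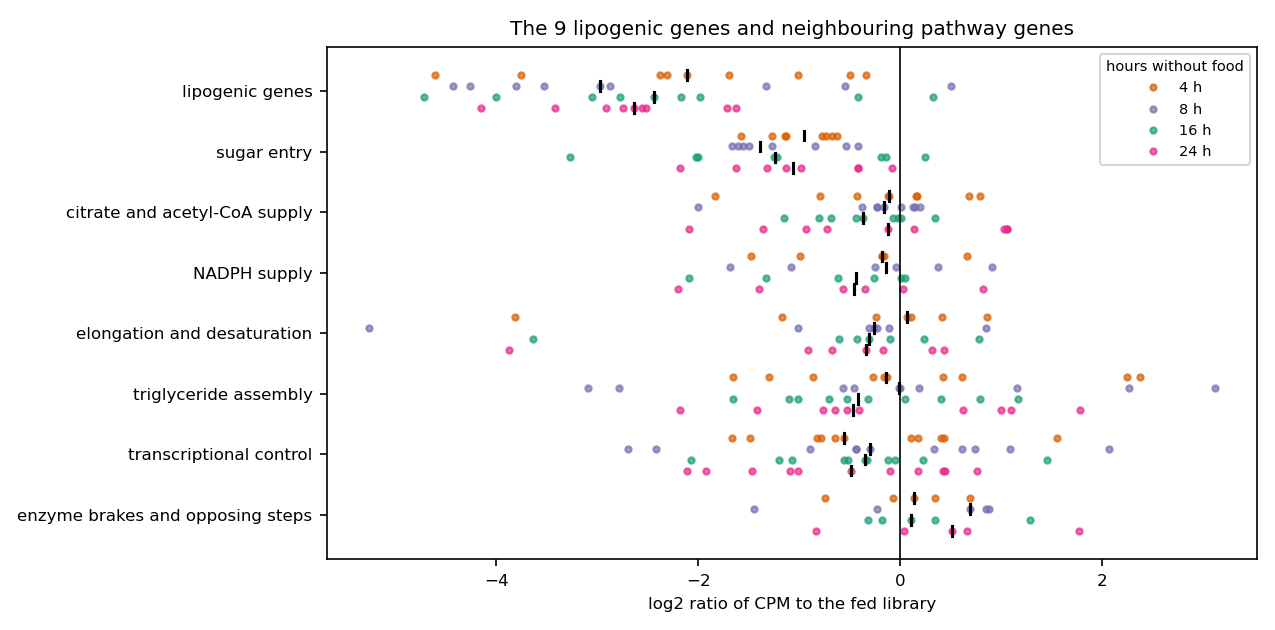
Log2 ratio of CPM to the fed library (x axis) for the 9 lipogenic genes and for the tested genes of 7 neighbouring lists (y axis, 1 row per library within each list); points are genes and black ticks the list medians. The lipogenic medians lie between -2.97 and -2.11, sugar entry lies mostly left of 0 with medians from -1.38 to -0.95, and the other lists lie nearer 0, with Elovl6 far left of its list.

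Genes outside the 10 were ranked by how closely log2(CPM + 5) over 25 points (5 libraries by 5 parts of the axis) followed the mean of the 9 genes, over 3280 genes. The 8 closest were Creld2 (Pearson r 0.99), Hsph1 (0.98), Cdk2ap2, Syvn1, Hspa5, Sdf2l1, Hsp90b1 and Manf (0.96). The points within a library share its depth and its time, so that r describes these libraries only. Among the 10 genes, Acly (0.97), Acaca (0.95) and Fasn (0.94) lay nearest to the mean of which they are part, and Scd1 (0.56) and Acacb (0.46) farthest. Creld2 stood at 195 CPM fed and at 24.8, 11.7, 18.3 and 7.90 CPM after, and Hspa5, which encodes an endoplasmic reticulum chaperone, at 3266 CPM fed and at 689, 348, 765 and 332 CPM.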

How the data were processed

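UMI counts per gene and barcode were deposited by the authors without normalization, from Cell Ranger 6.0.1 with build mm10, per the submitters' processing notes. A second deposited table assigns every barcode to a library, and the number of unused columns of values was 0. Python 3.11.15, numpy 2.4.6, scipy 1.17.1, R 4.3.3 and edgeR 4.0.16 (TMM factors only) were used. Hepatocytes were selected by the limits given above, doublets were not called or removed, and counts were summed per library and divided by non-mitochondrial UMIs (33521626 to 45532684). Poisson intervals were exact for levels, conditional binomial for ratios and Clopper-Pearson for shares of cells, all at 95%. Positions came from GENCODE M21 and promoters from RefSeq, both on GRCm38. Same-strand overlaps with other annotated genes exist for Acaca, Acly, Me1, Srebf1 and Pnpla3. Named were the 10 genes, the lowest and highest gene at 24 h of each list, list genes changed at least 2-fold at all 4 times, and the 8 genes most like the 9. An item that this rule names is not reported here. The genes, lists and tests were chosen with earlier results of these data known.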

Additional observations from a re-analysis of the deposited data

How the results depend on the processing

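No paired analysis was possible because each time has 1 library and no replicate numbers. The ratios to fed kept their direction in all 396 combinations of gene, time and setting, and for every change below the cause was not tested. With a 4-fold call, 0 genes were lower at 8 than at 4 h, 1 at 16 than at 8 h and 0 at 24 than at 16 h; the count at 16 against 8 h was also 1 in barcodes under 2% mitochondrial UMIs. Me1 at 4 h missed 2-fold under TMM (-0.85), median-of-ratios scaling (-0.86), mean per-cell CPM (-0.98) and in those low-mitochondrial barcodes (-0.97), where Thrsp at 4 h missed it too (-0.67). There 5, 7, 6 and 8 genes were lower than fed at 4, 8, 16 and 24 h, Acacb being under the minimum, and Scd1 at 16 h was past 2-fold higher (1.18). The neighbouring lists were rescaled after the data were seen. Of all called genes, median-of-ratios scaling made 34.8, 42.0, 50.9 and 47.1% lower at 4, 8, 16 and 24 h.

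The axis depended more on the cells used. The number of genes higher at the Cyp2e1 end in the fed library was 1 with no lower mitochondrial limit, with 2 to 15% mitochondrial UMIs and with mean per-cell CPM, and 0 in low-mitochondrial barcodes. At 4 h it was 2, 2, 3 and 0 in the same order. At 8 h it was 0 in low-mitochondrial barcodes. At 16 h it was 0 there, 3 with 5000 or more UMIs, and 2 with no lower limit, with 5 to 30%, without barcodes holding other cells' markers, with the outer parts of a 3-part split, with a landmark score and with 5 or more UMIs of Cyp2f2 and Cyp2e1. At 24 h it was 0 in low-mitochondrial barcodes and with the outer parts of a 3-part split. Of 450 log2 ratios between the ends, 39 changed sign. In low-mitochondrial barcodes these were Fasn 0.030, Scd1 -0.13, Srebf1 0.15 and Thrsp 0.023 at 0 h, Fasn -0.019, Scd1 -0.013, Thrsp -0.084 and Mid1ip1 -0.62 at 4 h, and Acacb -1.01, Acly -1.15, Scd1 -0.14 and Thrsp -0.30 at 8 h. There, 16 h gave Acly 0.33, Srebf1 0.33, Mid1ip1 0.33, Me1 -0.28 and Scd1 0.0025, and 24 h gave Fasn 0.036, Acly 0.055 and Thrsp -0.091. No lower mitochondrial limit gave Scd1 -0.37 at 0 h and -0.019 at 4 h, and Acly -0.13 at 8 h. Mean per-cell CPM gave Scd1 -0.27 at 0 h and, at 4 h, Fasn -0.082, Acacb -0.058 and Scd1 -0.083. The 2 to 15% limit gave Fasn -0.24, Acacb -0.27 and Scd1 -0.52 at 4 h. At 16 h Scd1 was 0.043 with 5000 or more UMIs, 0.10 with the outer parts of a 3-part split and 0.10 with the landmark score. At 24 h Thrsp was -0.25 with 5 to 30%, -0.14 with 5000 or more UMIs, -0.040 with the outer parts of a 3-part split, -0.40 with the landmark score and -0.19 with 5 or more UMIs of both genes, and Mid1ip1 was 0.050 with 5000 or more UMIs.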

Other observations

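Barcodes under 2% mitochondrial UMIs, which were left out above, held the same genes at other levels. Thrsp stood there at 3816, 2405, 597, 117 and 821 CPM at 0, 4, 8, 16 and 24 h, against 3592, 1108, 458, 137 and 477 CPM in the hepatocytes. It was the one gene of the 9 that was higher in these barcodes at 0, 4, 8 and 24 h. Scd1 stood at 1779, 1095, 1281, 4023 and 407 CPM, below the hepatocytes in every library, and Acly at 764, 144, 59.5, 88.9 and 70.2 CPM, also below them. Fasn stood at 1417 CPM fed and at 47.3, 31.4, 125 and 63.1 CPM after.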
